A study of Homo sapiens with 6 samples.

Results

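The genes examined were 10 transcripts that are known to follow the activity of the kinase ERK: DUSP4, DUSP5, DUSP6, SPRY2, SPRY4, SPRED1, SPRED2, PHLDA1, EPHA2 and IER3. They were taken by symbol from the 58735 genes of the expression table, and all 10 were found. The libraries came from HCT116, a human colorectal carcinoma cell line. 3 libraries were made from control-transfected cells (CTR, genotype labelled WT) and 3 from cells transfected with miR-8485 mimics. Mimics are short synthetic RNAs made to act in place of a miRNA. The methods of the study give 50 nM mimics and collection 48 h after transfection, while what the CTR cells received, and how much of it, is not given in the sources used here. The labels describe the libraries of each group as independent biological replicates of the cell line. The comparison asks how the mimic changes gene expression in these cells, here for genes that report on ERK, several of which also restrain it.

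In the ERK cascade, receptors activate RAS, RAS activates RAF kinases, and RAF activates MEK, which phosphorylates ERK. Active ERK raises the transcription of genes that act back on the cascade. Dual specificity phosphatases (DUSP) remove phosphate from ERK itself, Sprouty proteins (SPRY) interfere with signaling between receptor and RAF, and Spred proteins bring the RAS inactivator neurofibromin to the membrane. Because these transcripts are made when ERK is active and most of them decay quickly, their levels are widely used as a readout of ERK activity, which was not itself measured in these libraries.

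A miRNA recognizes an mRNA mainly through its seed, bases 2 to 8. The mimic is shown because its seed defines the sites searched for in the 10 genes, with the seed in capitals.
miR-8485 mimic: cACACACAcacacguau

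The matching site in an mRNA reads TGTGTGT when written as DNA. In the transcripts tagged as canonical by GENCODE, 5 of the 10 genes held at least 1 site in the 3′ UTR. The share was 28.9% among the 10672 tested genes with a canonical 3′ UTR. Their median 3′ UTR length was 1287 bases, and the shares were not compared at equal length. DUSP6 held 5 copies, some overlapping, in a 3′ UTR of 2019 bases. Of the tested genes with a canonical 3′ UTR, 4.79% held 5 or more. PHLDA1 held 3 separate copies in 4672 bases and DUSP4 held 2 separate copies in 3962 bases. EPHA2 held 3 in 878 bases and SPRED1 held 2 in 5585 bases, in each gene as 1 stretch of overlapping copies. No copy was found in the 3′ UTRs of SPRY4 (3779 bases), SPRED2 (2650), DUSP5 (1107), SPRY2 (782) and IER3 (737). The sites of DUSP6, PHLDA1, EPHA2 and SPRED1 are printed from GRCh38 in the direction of the mRNA, with the sites in capitals and 6 flanking bases on each side, to show that they are short. The longest stretch covered by overlapping sites measured 11 bases, in DUSP6 and EPHA2.
DUSP6, chr12:89349166-89349172, minus strand: tttcttTGTGTGTggcccc
DUSP6, chr12:89348217-89348227, minus strand: tggaagTGTGTGTGTGTgagcat
DUSP6, chr12:89348053-89348059, minus strand: attgaaTGTGTGTttttaa
PHLDA1, chr12:76029311-76029317, minus strand: atcatcTGTGTGTaaaggg
PHLDA1, chr12:76028218-76028224, minus strand: agaacaTGTGTGTacacat
PHLDA1, chr12:76026219-76026225, minus strand: ttttcgTGTGTGTcaaact
EPHA2, chr1:16124604-16124614, minus strand: agagaaTGTGTGTGTGTggcagg
SPRED1, chr15:38354943-38354951, plus strand: agagagTGTGTGTGTacgttt

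The values were FPKM, that is fragments per kilobase of gene scaled by the fragments of the library. Fragments on listed genes numbered 17473874 to 18480047 per library, recovered from the FPKM, of which 100% were whole multiples of 1 fragment to within 0.01. The summed FPKM were 322999 to 339641 in CTR and 351052 to 369643 in miR-8485, so that rescaling to TPM, in which each library sums to the same total, took the median over all tested genes from -0.0041 to -0.12 (log2 fold change). FPKM are relative to the library, and less of a transcript per cell cannot be told apart from fewer cells that make it. Of the epithelial markers, EPCAM had 135 ± 11.7 FPKM in CTR and 130 ± 3.48 FPKM in the miR-8485 libraries (mean ± SD, n = 3 each), while VIL1 and CDX1 were at or near 0. Of 7 epithelial markers tested, 3 fell in limma (KRT8 with a log2 fold change of -0.62, KRT18 with -0.97 and KRT19 with -0.58), 2 rose (CDX2 with 0.81 and KRT20 with 1.33), and EPCAM and CDH1 were not past the threshold. KRT20, at 0.73 FPKM in CTR and 2.02 FPKM in miR-8485, reached the mean of 1 FPKM needed for testing only through miR-8485. Its log2 fold change was 0.79 with a pseudocount of 1. The part of these markers in the results was not tested. Of 10 markers of fibroblasts, endothelial cells and leukocytes, only COL1A1 reached a mean of 1 FPKM. COL1A1 rose from 4.25 to 6.31 FPKM, the summed level of all 10 markers was 4.32 to 4.68 FPKM in CTR and 6.55 to 6.57 FPKM in miR-8485, and without COL1A1 the sums were 0.16 to 0.374 and 0.162 to 0.303 FPKM. The leukocyte markers PTPRC and CD3E and the fibroblast marker DCN were at or near 0 in all libraries.

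All 10 genes were lower in the miR-8485 libraries. They were chosen with earlier results of these data known, which limits their comparison with all tested genes. In limma with Benjamini-Hochberg adjustment over the 12349 tested genes, 10 of 10 fell and 0 rose, where 30.5% of all tested genes fell and 29.1% rose. In numbers, 3769 of all tested genes fell and 3593 rose, and 4725 fell and 2613 rose after rescaling to TPM, which left all 10 lower. Every miR-8485 library lay below every CTR library for 10 of the 10, against 34.0% of all tested genes. The fall was at least 0.5 on the log2 scale for 8 of the 10 and for 15.0% of all tested genes. The median log2 fold change of the 10 genes was -0.86, with a range from -2.11 for SPRY4 to -0.31 for SPRED1. The median was -0.98 after rescaling to TPM. Summed over the 10 genes, the libraries held 802, 746 and 758 FPKM in CTR and 390, 390 and 414 FPKM in miR-8485, a sum to which IER3 contributes most.

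**Figure D1:**
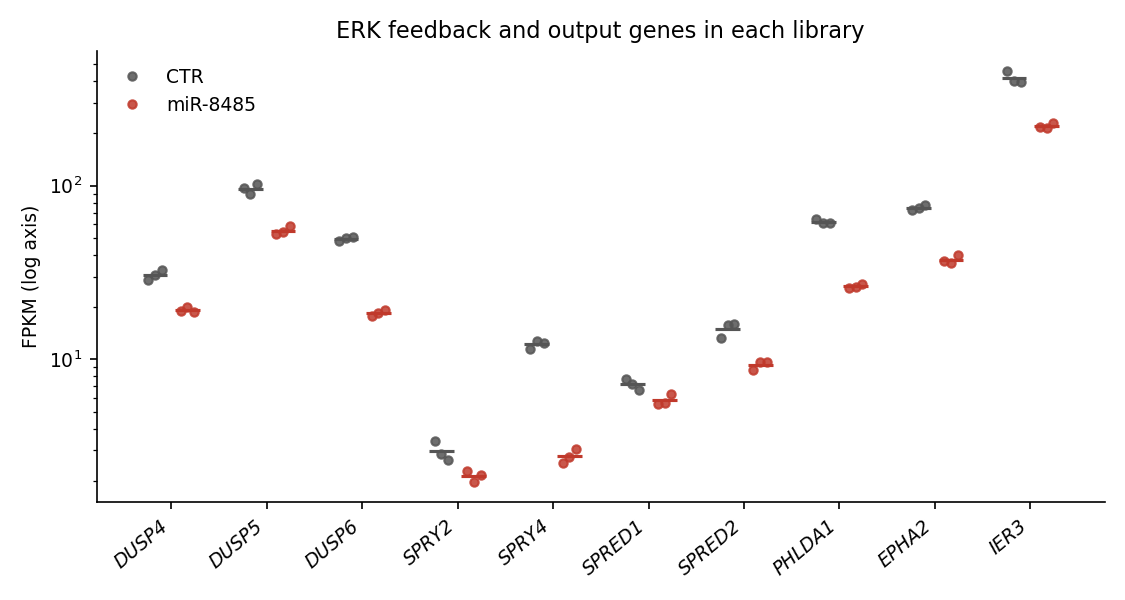
FPKM of the 10 ERK feedback and output genes in each of the 3 CTR and 3 miR-8485 libraries on a log axis, with points for libraries and bars for group means. For every gene the 3 miR-8485 points lie below the 3 CTR points, and the gap is widest for SPRY4, with means of 12.2 and 2.77 FPKM.

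**Figure D2:**
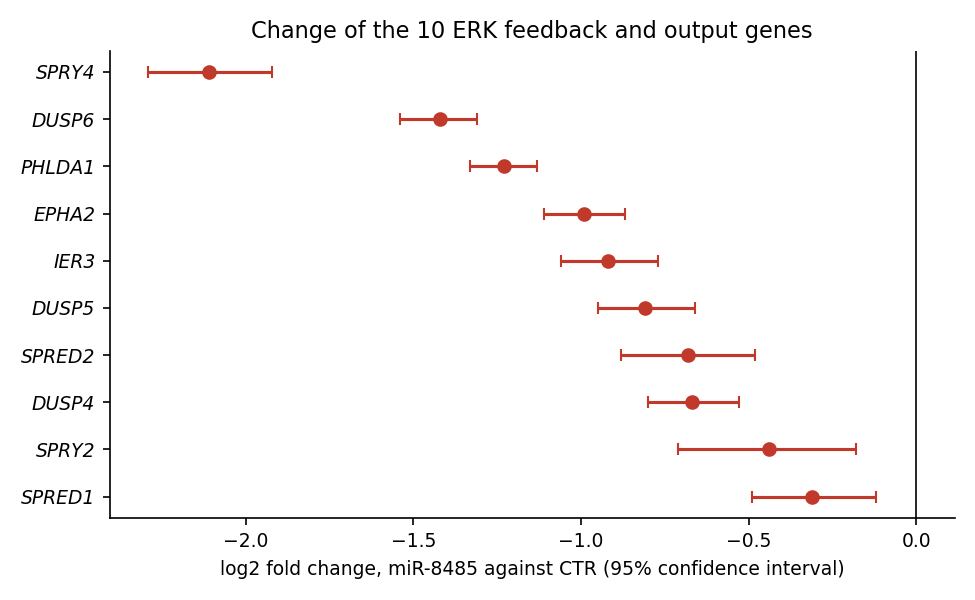
Log2 fold change of each gene in miR-8485 against CTR from limma, with its 95% confidence interval, ordered by size. All intervals lie below 0, from SPRY4 at -2.11 to SPRED1 at -0.31.

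DUSP6 encodes a cytoplasmic phosphatase that is highly selective for ERK. In hg38, the build of the files, its gene (ENSG00000139318) spans chr12:89347232-89353271 on the minus strand. DUSP6 was at 47.98, 50.03 and 50.95 FPKM in CTR replicates 1 to 3 and at 17.7, 18.5 and 19.2 FPKM in miR-8485 replicates 1 to 3. The groups were far apart, and within each group the libraries were within a few FPKM. The fall was 2.69-fold, or -1.42 ± 0.05 (SE) as a log2 fold change (limma, adjusted p = 2.2e-06).

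DUSP5 (ENSG00000138166, chr10:110497838-110511544, plus strand) encodes a nuclear phosphatase that inactivates ERK and holds it in the nucleus. It was the most abundant of the 3 phosphatase genes, with 97.5, 89.3 and 102 FPKM in CTR and 52.5, 53.9 and 58.2 FPKM in miR-8485. The lowest CTR library was well above the highest miR-8485 library. Limma gave a log2 fold change of -0.81 ± 0.06 (SE, adjusted p = 3.9e-05), which left 57.1% of the CTR level.

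DUSP4 encodes another nuclear phosphatase, which acts on ERK and also on the stress kinases JNK and p38. The gene (ENSG00000120875) spans chr8:29333064-29350668 on the minus strand. DUSP4 was at 28.7, 30.8 and 32.8 FPKM in CTR and at 19.1, 19.98 and 18.83 FPKM in miR-8485. The groups did not overlap, and the miR-8485 libraries were closer together than those of CTR. On the log2 scale the change was -0.67 ± 0.06 (SE, limma adjusted p = 6.7e-05).

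SPRY4 (ENSG00000187678, chr5:142310427-142326455, minus strand) encodes a Sprouty protein, an inhibitor of the path from receptor to RAS and RAF. It fell most of the 10 genes, from 11.5, 12.7 and 12.5 FPKM in CTR to 2.53, 2.74 and 3.04 FPKM in miR-8485. The highest miR-8485 library held far less than the lowest CTR library. This was a 4.42-fold fall, or -2.11 ± 0.08 (SE) as a log2 fold change (limma, adjusted p = 2.5e-06), and 0.534% of all tested genes had a log2 fold change as low or lower. No TGTGTGT site was found in its 3′ UTR.

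SPRY2, the related gene (ENSG00000136158, chr13:80335976-80340951, minus strand), was the least expressed of the 10. It had 3.38, 2.84 and 2.66 FPKM in CTR and 2.27, 1.98 and 2.16 FPKM in miR-8485. These levels rest on 146 to 185 fragments per CTR library and 109 to 125 per miR-8485 library, and CTR replicate 1 was higher than the other libraries. The groups did not overlap, and the fall was small, at -0.44 ± 0.11 on the log2 scale (SE, limma adjusted p = 0.0109).

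SPRED2 (ENSG00000198369, chr2:65310851-65432637, minus strand) and SPRED1 (ENSG00000166068, chr15:38252326-38357249, plus strand) encode the Spred proteins that recruit neurofibromin. SPRED2 was at 13.3, 15.9 and 16.0 FPKM in CTR and at 8.70, 9.69 and 9.62 FPKM in miR-8485. Replicate 1 was the lowest library of its group in both groups, and the groups did not overlap. The log2 fold change from limma was -0.68 ± 0.08 (SE, adjusted p = 3.7e-04).

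SPRED1 changed least. It was at 7.73, 7.23 and 6.71 FPKM in CTR and at 5.51, 5.60 and 6.36 FPKM in miR-8485, so that the highest miR-8485 library came close to the lowest CTR library without reaching it. Limma gave a log2 fold change of -0.31 ± 0.08 (SE, adjusted p = 0.0122), and 26.0% of all tested genes had a log2 fold change as low or lower. With the trend against gene length removed, SPRED1 was not past the threshold (log2 fold change -0.21, adjusted p = 0.059 in limma). Its length of 8260 bases in the table is the largest among the 10.

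PHLDA1 encodes a pleckstrin homology-like domain protein whose transcript is a standard member of signatures of ERK output. The gene (ENSG00000139289) spans chr12:76025447-76033932 on the minus strand. PHLDA1 was at 64.1, 61.1 and 61.1 FPKM in CTR and at 25.9, 26.3 and 27.1 FPKM in miR-8485. Replicates differed by little, with a coefficient of variation of 2.77% in CTR and 2.37% in miR-8485. On the log2 scale the change was -1.23 ± 0.04 (SE, limma adjusted p = 2.2e-06).

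EPHA2 (ENSG00000142627, chr1:16124337-16156087, minus strand) encodes a receptor tyrosine kinase for ephrin-A ligands. It was at 72.6, 74.4 and 76.9 FPKM in CTR and at 37.0, 36.0 and 39.7 FPKM in miR-8485. The groups were well separated, and 50.3% of the CTR level was left. The log2 fold change from limma was -0.99 ± 0.05 (SE, adjusted p = 7.2e-06).

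IER3 (ENSG00000137331, chr6:30743199-30744554, minus strand), an immediate early gene, encodes a small protein that ERK phosphorylates and that affects cell survival. It was by far the most abundant of the 10, with 456, 402 and 397 FPKM in CTR and 218, 215 and 230 FPKM in miR-8485. CTR replicate 1 was the highest library, and the groups did not overlap. Limma gave a log2 fold change of -0.92 ± 0.06 (SE, adjusted p = 2.2e-05).

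Per gene length, the order of the levels in CTR was IER3, DUSP5, EPHA2, PHLDA1, DUSP6, DUSP4, SPRED2, SPRY4, SPRED1 and SPRY2, with no overlap between the libraries of neighbours. In miR-8485, DUSP4 stood before DUSP6, with overlapping libraries, and SPRED1 stood before SPRY4. The other places were the same in both groups. Listed genes on the opposite strand overlap DUSP6, SPRY4, PHLDA1, EPHA2 and IER3, at mean levels of at most 0.743 FPKM, and without a known strand setting their fragments cannot be separated from those of the gene they overlap.

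Fitted falls differed in size between related genes, and 4 pairs were compared by the ratio of their levels. The ratio of a pair within a library does not depend on how libraries are scaled to each other. The log2 ratio of DUSP6 to DUSP4 was 0.74, 0.70 and 0.63 in CTR and -0.11, -0.11 and 0.03 in miR-8485. DUSP6 was therefore 1.61 times DUSP4 in CTR and 0.956 times DUSP4 in miR-8485. The log2 ratio of DUSP6 to DUSP5 was -0.95 ± 0.10 (SD, n = 3) in CTR and -1.57 ± 0.03 (SD, n = 3) in miR-8485. The Sprouty pair shifted most, from a log2 ratio of SPRY2 to SPRY4 of -1.73, -2.13 and -2.19 in CTR to -0.15, -0.45 and -0.47 in miR-8485. SPRY2 stood at 0.247 times the level of SPRY4 in CTR and at 0.782 times in miR-8485. For these 3 pairs the groups did not overlap, and the exact two-sided permutation test gave p = 0.10 (0.133 after Benjamini-Hochberg adjustment over the 4 pairs), the smallest p that 3 against 3 libraries allow, so no pair could pass a threshold of 0.05. The libraries of SPRED1 to SPRED2 overlapped, with a log2 ratio of -1.05 ± 0.24 (SD, n = 3) in CTR and -0.67 ± 0.10 (SD, n = 3) in miR-8485 (exact permutation p = 0.20, adjusted 0.20).

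**Figure D3:**
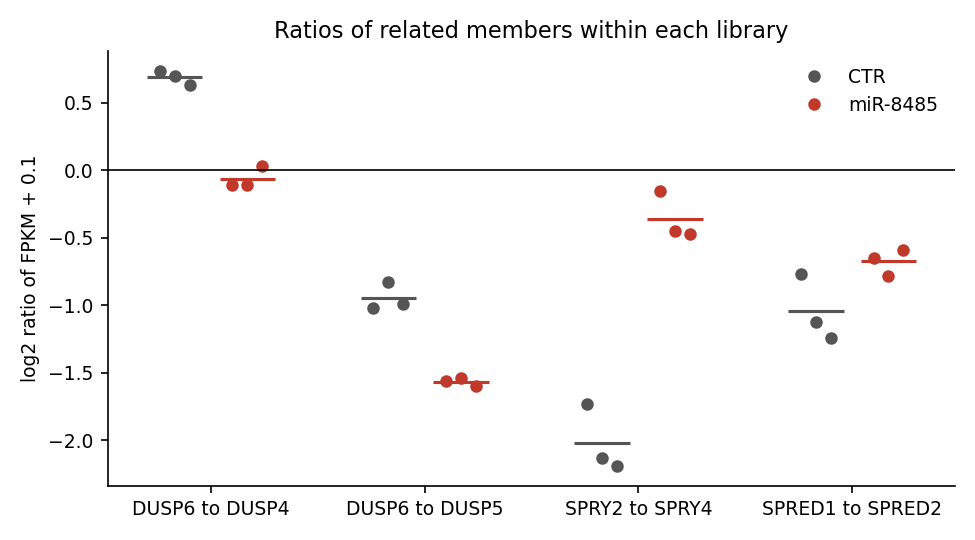
Log2 ratio of FPKM + 0.1 for 4 pairs of related genes in each library, with bars at the group means. The SPRY2 to SPRY4 ratio moves from a mean of -2.02 in CTR to -0.36 in miR-8485, and the libraries of SPRED1 to SPRED2 overlap.

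The falls of genes with and without a seed site were set side by side. The log2 fold changes lay between -1.42 and -0.31 with a median of -0.99 for the 5 genes with a site, and between -2.11 and -0.44 with a median of -0.81 for the 5 without. These ranges overlap, and with 5 genes each no test was made.

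Promoters were examined for sites of transcription factors downstream of ERK. Whether such factors act on the 10 genes in these cells was not tested. RefSeq promoter sequences of GRCh38.p14, 250 bases before to 50 bases after a start site, matched 7 of the 10 genes with 10 entries, the exceptions being DUSP4, DUSP5 and IER3. Both strands were searched for the AP-1 site TGANTCA, the ETS sites CCGGAA and CAGGAAGT, the cAMP response element TGACGTCA and the CArG box bound by serum response factor, and no matches overlapped. CCGGAA was found in 2 of the 10 entries, that of PHLDA1 and 1 of several for SPRY2, and in 17.2% of all 35116 promoters. TGANTCA was found in 1 of the 2 entries of SPRED2 and in 7.71% of all, and TGACGTCA in EPHA2 and in 1.85% of all. CAGGAAGT and the CArG box, present in 3.08% and 1.29% of all promoters, were not in these windows. The entries of DUSP6 and SPRY4, which fell most, and of SPRED1, which fell least, held none of the letters searched. The promoters of EPHA2 and PHLDA1 are shown with their matches in capitals, the first beginning 51 bases before the start site and the second 89 bases before it, where the letters are those of CCGGAA on the other strand.
EPHA2, chr1:16156020-16156319, minus strand: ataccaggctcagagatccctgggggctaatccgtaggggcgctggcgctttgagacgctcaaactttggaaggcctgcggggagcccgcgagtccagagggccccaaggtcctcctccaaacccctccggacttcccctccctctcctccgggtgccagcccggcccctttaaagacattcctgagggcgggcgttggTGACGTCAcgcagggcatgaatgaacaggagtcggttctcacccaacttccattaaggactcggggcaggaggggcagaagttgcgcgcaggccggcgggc
PHLDA1, chr12:76031727-76032026, minus strand: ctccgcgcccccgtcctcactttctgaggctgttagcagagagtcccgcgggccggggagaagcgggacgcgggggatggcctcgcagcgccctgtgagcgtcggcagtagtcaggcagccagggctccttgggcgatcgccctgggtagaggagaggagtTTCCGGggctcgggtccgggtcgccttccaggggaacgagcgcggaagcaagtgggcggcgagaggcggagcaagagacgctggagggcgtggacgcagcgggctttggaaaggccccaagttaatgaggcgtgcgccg

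Of 7 other MAP kinase phosphatase genes tested, 4 rose and 1 fell in limma (29.1% and 30.5% of all tested genes), and their median log2 fold change was 0.34. The gene that fell was DUSP7, which like DUSP6 encodes a cytoplasmic phosphatase selective for ERK, from 8.56 ± 0.221 FPKM to 5.28 ± 0.437 FPKM (mean ± SD, n = 3 each), which is -0.69 on the log2 scale (limma, adjusted p = 1.4e-04). DUSP8 had the highest log2 fold change of the 7, from 5.15 ± 0.361 FPKM to 7.53 ± 0.656 FPKM (mean ± SD, n = 3 each), which is 0.54 on the log2 scale (limma, adjusted p = 9.6e-04). DUSP10 and DUSP16, named after their values were seen, rose by 0.49 and 0.34. DUSP8, DUSP10 and DUSP16 act mainly on JNK and p38, and their rises were past the threshold under each of the 3 other scalings and with the gene length trend removed. DUSP1, an immediate early phosphatase for all 3 kinase classes, rose by 0.39 on the log2 scale (adjusted p = 0.0264 in limma), but was not past the threshold after rescaling to TPM (0.28, adjusted p = 0.0706), without a filter (0.0827), with the length trend removed (0.0855), or without CTR replicate 1 (0.06), CTR replicate 2 (0.0783), miR-8485 replicate 1 (0.0803) or miR-8485 replicate 2 (0.0565). DUSP9, a further ERK phosphatase, stood at 0.01 with a 95% confidence interval from -0.22 to 0.24, and DUSP2 had -0.03, from -0.25 to 0.19, and both changed sign with the setting.

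**Figure D4:**
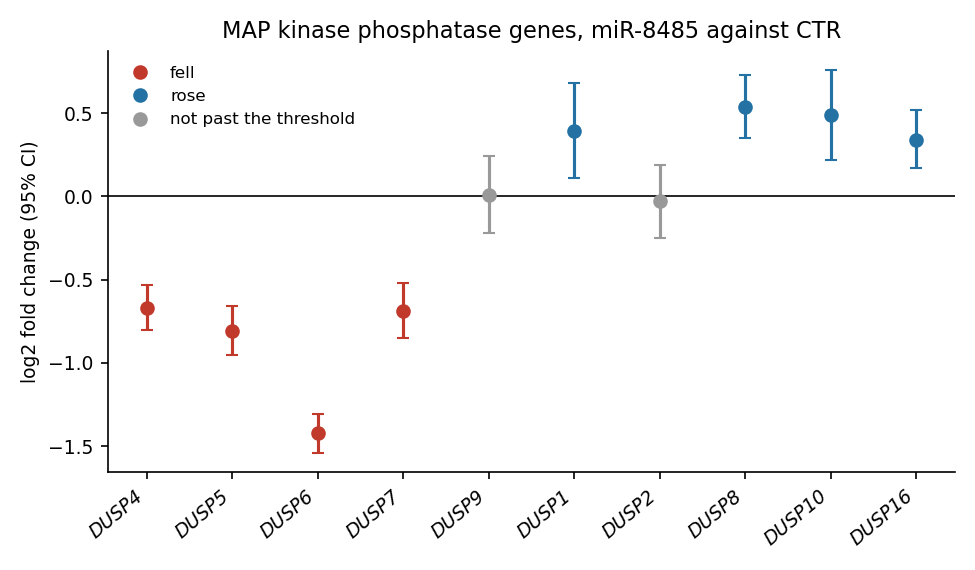
Log2 fold change with 95% confidence interval of 10 MAP kinase phosphatase genes, colored by their limma call. DUSP4, DUSP5, DUSP6 and DUSP7 lie between -1.42 and -0.67, and DUSP1, DUSP8, DUSP10 and DUSP16 between 0.34 and 0.54.

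SPRY1, the third Sprouty gene above 1 FPKM, fell from 3.25 ± 0.357 FPKM to 2.37 ± 0.281 FPKM (mean ± SD, n = 3 each), which is -0.44 on the log2 scale (limma, adjusted p = 0.0155). It was not past the threshold without CTR replicate 2 (adjusted p = 0.0529) or CTR replicate 3 (adjusted p = 0.053). SPRY3 and SPRED3 were under 1 FPKM as a mean of all 6 libraries, as was NF1, the gene of neurofibromin, with 0.741 ± 0.0187 FPKM in CTR and 0.682 ± 0.0317 FPKM in miR-8485 (mean ± SD, n = 3 each) (log2 fold change -0.10, adjusted p = 0.728 in the fit of all genes above 0).

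A longer list of 24 other genes reported to follow ERK held 23 tested genes, of which 14 fell, 4 rose and 5 were neither (30.5% of all tested genes fell and 29.1% rose), and its median was -0.52, against -0.0041 over all tested genes (log2 fold change). CCND1, which encodes cyclin D1, fell from 216 ± 7.21 FPKM to 23.7 ± 1.69 FPKM (mean ± SD, n = 3 each), which is -3.18 on the log2 scale (limma, adjusted p = 4.1e-07). EGR1, an immediate early zinc finger factor, fell by 1.47, and FOSL1, an AP-1 subunit, fell by 0.83 on the log2 scale. The ETS factors ETV4 and ETV5 fell by 0.69 and 0.31. CXCL8, named after its values were seen, was among the 14 with overlapping groups (-0.71, adjusted p = 0.0433 in limma). Its adjusted p reached 0.13 among the alternatives. The 4 genes that rose, named after their values were seen apart from ELF1, were ELF1 with 0.83, ETV1 with 0.67, MYC with 0.27 and LGALS3 with 0.20. MYC was not past the threshold with quantile normalization (0.22, adjusted p = 0.0512 in limma), and LGALS3 was not after rescaling to TPM (0.09, adjusted p = 0.218), with the length trend removed (0.11, adjusted p = 0.163) or without miR-8485 replicate 3 (0.18, adjusted p = 0.052).

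Of the ERK cascade itself, 17 of 19 genes were tested, and 8 fell, 1 rose and 8 were neither (30.5% of all tested genes fell and 29.1% rose), with a median log2 fold change of -0.14. EGFR, a receptor upstream of RAS, fell most, from 8.99 ± 0.482 FPKM to 4.78 ± 0.0934 FPKM (mean ± SD, n = 3 each), a log2 fold change of -0.90. MAPK3, which encodes ERK1, was at 17.2 ± 1.25 FPKM and 18.9 ± 0.72 FPKM (mean ± SD, n = 3 each), with a log2 fold change of 0.14 (limma, adjusted p = 0.095), which missed the threshold. The gene that rose was MAP2K2, which encodes MEK2, with a log2 fold change of 0.25. GAB1 and BRAF were under 1 FPKM as a mean of all 6 libraries. Of the 8 that fell, KSR1, a scaffold of the cascade named after its values were seen, was not past the threshold without CTR replicate 2 (adjusted p = 0.0501 in limma), CTR replicate 3 (0.0818), miR-8485 replicate 1 (0.0586) or miR-8485 replicate 2 (0.0561). KSR1 had means of 1.34 FPKM in CTR and 0.817 FPKM in miR-8485, and reached the mean of 1 FPKM needed for testing only through CTR.

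Among 11 transcription factor genes that ERK regulates or acts with, 5 fell and 2 rose, where 30.5% of all tested genes fell and 29.1% rose. ETS1, at 2.16 ± 0.285 FPKM in CTR and 0.722 ± 0.0635 FPKM in miR-8485 (mean ± SD, n = 3 each), had the lowest log2 fold change, -1.46, which became -0.87 with a pseudocount of 1, where ELK3 was lower with -0.94. ETS1 reached the mean of 1 FPKM needed for testing only through CTR. JUN rose most, with 0.73. CIC, which encodes a repressor of several ERK output genes and was named after its values were seen, rose by 0.18 (adjusted p = 0.0323 in limma) and was not past the threshold after rescaling to TPM (0.06, adjusted p = 0.361), without a filter (0.0653), with a replicate block (0.0533), or without CTR replicate 1 (0.0744), CTR replicate 2 (0.0665), miR-8485 replicate 1 (0.084) or miR-8485 replicate 2 (0.0991).

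Of 5 tested EphA receptor and ephrin-A genes other than EPHA2, 3 rose and 0 fell in limma (29.1% and 30.5% of all tested genes). EFNA4 and EFNA1, which encode ligands of EPHA2, rose by 0.52 and 0.39 on the log2 scale, and EFNA3, named after its values were seen, rose by 0.48. These rises were past the threshold under each of the 3 other scalings. Of the other ephrin-A genes, EFNA2 had a log2 fold change of 0.24 with overlapping groups (adjusted p = 0.175 in limma), and EFNA5 was below 1 FPKM in every library. With the replicate block, 4 genes of this list rose in place of 3. The adjusted p of EFNA2 was as low as 0.0098 among the alternatives in limma. EPHA1 stood at -0.07 on the log2 scale (adjusted p = 0.334 in limma) and was past the threshold after rescaling to TPM (-0.19, adjusted p = 0.0234). EPHA4, fitted with all genes above 0, fell from 1.09 ± 0.104 FPKM to 0.583 ± 0.0819 FPKM (mean ± SD, n = 3 each), with an adjusted p of 0.0258 in limma.

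**Figure D5:**
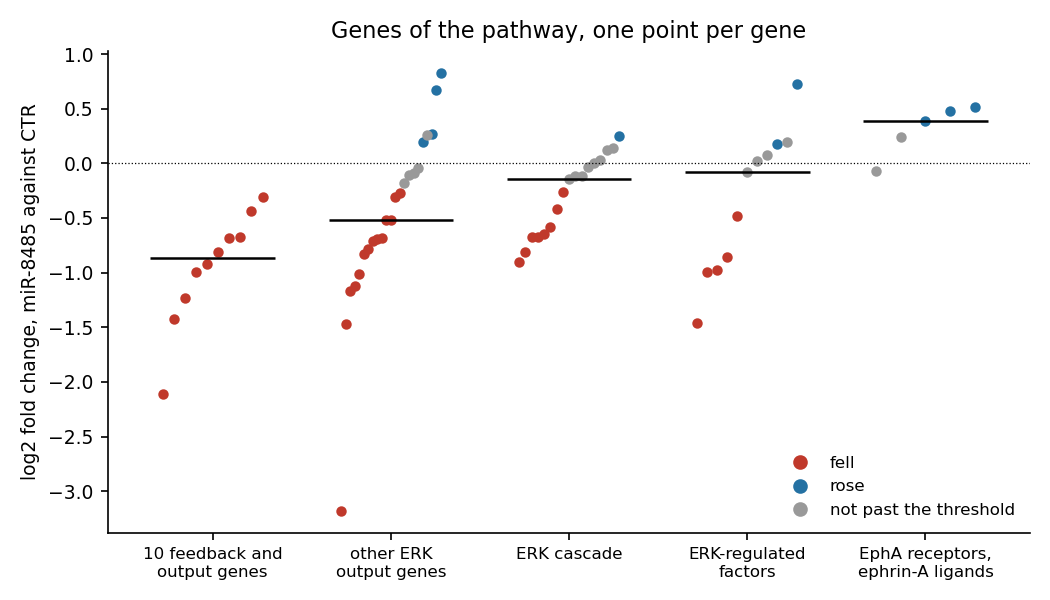
Log2 fold change of each tested gene in the 10 feedback and output genes and 4 other lists, colored by limma call, with a bar at the median of each list. The 10 genes are all below 0 with a median of -0.86, the other ERK output genes have a median of -0.52 and the ERK cascade one of -0.14.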

How the data were processed

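RNA-seq had been performed on 6 HCT116 libraries. The authors trimmed reads with fastp 0.23.1, aligned them to hg38 with HISAT2 2.0.5 and counted fragments with featureCounts 1.5.0-p3. The values deposited by the authors were FPKM, and the annotation release and strand setting were not given in the sources used here. Since FPKM are not counts, limma 3.58.1 (R 4.3.3) with a variance trend was applied to log2(FPKM + 0.1) for the 12349 genes with a mean of at least 1 FPKM, two-sided, with Benjamini-Hochberg adjustment over all of them and a threshold of 0.05. This scale understates the change of low genes. Genes below 1 FPKM were taken from the same fit of all 31768 genes above 0. Ratios of gene pairs were compared by exact permutation tests in scipy 1.17.1. The limma script was tested on simulated data. Alternatives were pseudocounts of 1 and 0.01, other filters (none, at least 5 FPKM), TPM, median-of-ratios and quantile scaling, removal of the gene length trend, no variance trend, a replicate block, voom on recovered fragments, a minimum log2 fold change of 0.5 and each library left out. The 10 genes and all other lists were chosen with earlier results of these data known. Outside the 10 genes, the genes named were those with the largest rise and largest fall past the threshold in each list and always ETV4, ETV5, EGR1, FOSL1, CCND1, DUSP1, DUSP7, NF1, MAPK3, EFNA1 and others that are not reported here. Markers, genes at the edge of a count and others were named after their values were seen. Mature and promoter sequences were sought in RefSeq tables (GRCh38.p14), 3′ UTRs in GENCODE release 44 (GRCh38), and the mimic sequence in the supplementary methods of the study.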

Additional observations from a re-analysis of the deposited data

How the results depend on the processing

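All 10 genes kept a log2 fold change below 0 in each of the 169 values from the alternatives, and 168 of these stayed on the same side of the threshold, the exception being SPRED1 with the gene length trend removed. At a mean of at least 5 FPKM, 2 other phosphatase genes rose in place of 4, 0 Sprouty genes fell in place of 1 and 5 cascade genes fell in place of 8, since 5, 0 and 13 genes of these lists were tested. Of the ERK-regulated factors, 1 rose in place of 2 without a filter, with a replicate block and after rescaling to TPM. Without a filter (EPHA4) and after rescaling to TPM (EPHA1), 1 gene of the EphA and ephrin-A list fell in place of 0. With a library left out, 0 to 1 other Sprouty genes fell and 1 to 2 ERK-regulated factors rose. Over all tested genes, 3593 rose and 3769 fell, 2613 and 4725 after rescaling to TPM, and 2303 and 2417 among the 6878 genes with at least 5 FPKM. The labels number the replicates, but same-numbered libraries did not deviate together (correlations of 0.067, 0.033 and -0.064 for replicates 1 to 3), and only CTR replicate 1 was most like its own number. With the replicate block, 3634 genes rose and 3754 fell, and 10 of 10 genes still fell. Where a cause is not given here, the cause was not tested. SPRY2, with the fewest fragments, is the least precise of the 10.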
